A study of Mus musculus with 10 samples.

Results

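The neuropeptide genes of the mouse hippocampus were described here by 10 precursor genes, Npy, Sst, Vip, Cck, Penk, Pdyn, Tac1, Adcyap1, Crh and Trh. They were taken by symbol from the deposited gene table, where all 10 were found among 15900 genes. Gene expression was measured by cap analysis of gene expression (CAGE), which sequences the capped 5′ end of RNA, in the whole hippocampus of 10 male ICR (CD-1) mice. The values are counts per 1000000 tags (CPM). A transcript gives 1 tag at its 5′ end, so CPM was not divided by transcript length and levels of different genes were set side by side as CPM.

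The 5 groups held 2 mice each. The pre-SE mice carry the label untreated, and the methods of the study give saline in place of pilocarpine (PILO) for controls. The mice of all 5 groups were 9 to 10 weeks old. In the other 4 groups status epilepticus (SE) was induced with PILO at 290 mg/kg i.p. after methyl scopolamine, which limits the peripheral actions of PILO. The study took 5 generalized convulsive seizures as SE, which was ended with diazepam. The SE 6 h and SE 2 days groups received no further drug. The SE + LEV 6 h and SE + LEV 2 days groups also received levetiracetam (LEV), an antiseizure drug that binds the synaptic vesicle protein SV2A, at 360 mg/kg by mouth, as a single dose by 6 h and as repeated doses by 2 days. Methyl scopolamine, PILO and diazepam were thus shared by all SE groups, and the effect of each cannot be told apart from that of SE in a comparison with pre-SE. The tissue was the whole hippocampus with all its cell types, so that fewer cells of a type and less RNA per cell cannot be told apart.

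Neuropeptides are cut from larger precursor proteins in dense-core vesicles by prohormone convertases, released mainly during high-frequency firing, and act through G protein-coupled receptors. In the hippocampus Npy, Sst, Vip and Cck are known as products of GABAergic interneurons, with Cck also made by pyramidal cells, while Pdyn and Penk are made by dentate granule cells and their mossy fibres. Transcription of several of these genes is known to respond to neuronal activity through cAMP and calcium signalling, for which the DNA element is the cAMP response element (CRE).

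The promoter sequences are shown because CAGE counts the RNA that starts at them. RefSeq windows, from a table of build GRCm38.p6, were matched for 8 of the 10 genes (not for Penk and Crh), and were placed in mm9, the build of the deposited data, by exact match. The motifs searched in the 250 bases before each start were the full CRE (TGACGTCA), the CRE half-site (TGACG, on both strands, of which a full CRE holds 2 that overlap) and TATAAA on the forward strand. Below are the windows of Trh, Tac1 and Pdyn, which were called higher after SE, and of Sst, which holds the full element. All are written 5′ to 3′ on the strand of the gene, with the motif letters of CRE or half-site in capitals (a reverse half-site reads CGTCA). The Trh window lies at chr6:92194645-92194894 on the minus strand, that of Tac1 at chr6:7504811-7505060 on the plus strand, that of Pdyn at chr2:129525675-129525924 on the minus strand and that of Sst at chr16:23890931-23891180 on the minus strand.
Trh: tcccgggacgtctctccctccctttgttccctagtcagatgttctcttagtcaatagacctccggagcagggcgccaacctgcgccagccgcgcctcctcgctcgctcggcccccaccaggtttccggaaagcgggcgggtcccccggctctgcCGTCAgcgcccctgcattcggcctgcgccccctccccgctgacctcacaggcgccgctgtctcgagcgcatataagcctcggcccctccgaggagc
Tac1: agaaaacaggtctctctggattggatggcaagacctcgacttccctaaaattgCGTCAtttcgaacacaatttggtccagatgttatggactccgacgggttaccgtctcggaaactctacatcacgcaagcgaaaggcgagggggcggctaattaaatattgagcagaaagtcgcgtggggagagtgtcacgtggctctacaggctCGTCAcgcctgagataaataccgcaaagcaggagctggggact
Pdyn: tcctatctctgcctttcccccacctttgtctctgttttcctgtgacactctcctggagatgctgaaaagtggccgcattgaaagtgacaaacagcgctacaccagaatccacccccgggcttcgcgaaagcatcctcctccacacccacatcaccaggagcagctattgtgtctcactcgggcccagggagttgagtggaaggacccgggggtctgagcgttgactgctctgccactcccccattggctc
Sst: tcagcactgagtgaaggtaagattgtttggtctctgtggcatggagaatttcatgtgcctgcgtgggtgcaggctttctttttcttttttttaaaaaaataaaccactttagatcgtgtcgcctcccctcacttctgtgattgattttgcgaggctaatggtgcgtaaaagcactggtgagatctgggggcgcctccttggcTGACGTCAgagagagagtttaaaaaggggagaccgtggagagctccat

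The full CRE was found in the window of Sst alone, with its first base at -48 from the RefSeq start, and in 1.55% of all 32851 windows of that length. A half-site was found in 6 of the 8 genes (Tac1, Trh, Cck, Vip, Sst and Adcyap1), counted by gene. The share over all windows, counted by window, was 17.8%. TATAAA, held by 7.59% of all windows, was found in the window of Vip and in 1 of the 2 windows of Adcyap1. Tac1 held 2 half-sites, at -197 and -43, and Trh held 1 at -96. The windows of Pdyn and Npy held neither the CRE nor its half-site. These matches describe letters only, and whether they bear on the calls was not tested. The RefSeq starts used for Trh and Sst are also the annotated mm9 starts, while that of Tac1 (-10) and that of the Pdyn window shown (-94) lie upstream of the annotated start by that number of bases. The 8 genes had 10 windows, 2 each for Pdyn and Adcyap1. The second window of Pdyn, chr2:129524395-129524644, lies directly upstream of an annotated start and also holds neither the CRE nor its half-site.

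In the untreated hippocampus the levels of the 10 genes spanned more than 3 orders of magnitude. Mean CPM was 527.0 for Cck and 514.0 for Sst, whose mice overlapped, then 111.0 for Npy, 24.4 for Vip and 21.4 for Penk. Lower levels were found for Tac1 (5.64), Crh (4.50), Pdyn (3.29), Adcyap1 (2.19) and Trh (0.205). Vip and Penk overlapped between mice, as did Tac1 with Crh and Crh with Pdyn, so these neighbours were not separated by their spread. After SE the order changed, with Crh above Penk in mean level at SE 6 h (57.8 against 43.0 CPM, with overlapping mice) and Penk at 321.0 CPM in SE 2 days, in 4th place behind Sst, Npy and Cck, whose mice overlapped with their neighbours and with those of Penk.

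**Figure D1:**
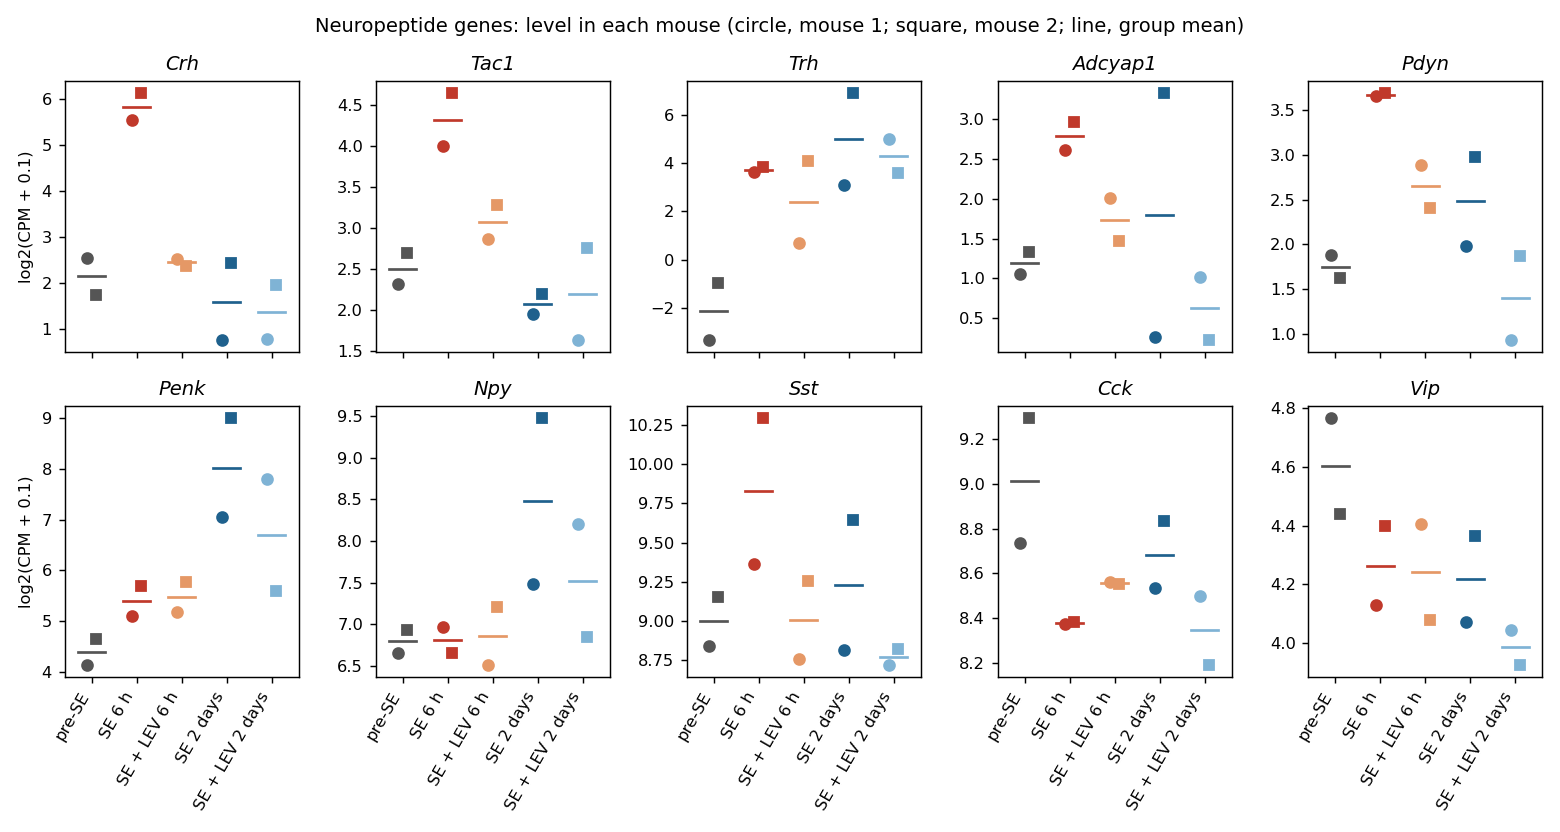
Expression of the 10 neuropeptide genes in each of the 10 mice, as log2(CPM + 0.1) on the vertical axis, by group on the horizontal axis (circle, mouse 1; square, mouse 2; line, mean of 2 mice; each panel has its own vertical range). Crh, Tac1 and Pdyn were highest in both SE 6 h mice, Penk was highest in SE 2 days mouse 2, and the 2 mice of SE 2 days stood far apart for Npy, Penk, Trh and Adcyap1.

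The libraries held 10540698 to 51710968 tags, and a gene without tags could still have been present at up to 3 tags, equal to 0.058 CPM in the deepest and 0.285 CPM in the shallowest library (counting error only). Nothing in the labels or methods states whether replicate libraries came from separate litters or runs. A limma p-value here sets a difference of group means against the spread between mice. That spread was estimated over all 5 groups and moderated by the trend over all genes. The choroid plexus marker Ttr ran from 4.33 to 3936 CPM and was high in 1 mouse of pre-SE, SE 6 h, SE + LEV 6 h and SE + LEV 2 days each. The 3 listed choroid plexus markers were thus unequal within groups (summed 5.06 CPM in SE 6 h mouse 1 and 4000 CPM in mouse 2), and their part in the results was not tested. GABAergic interneuron markers Gad1, Gad2 and Slc32a1 were present in every library, where the 7 interneuron markers summed to 382.0 to 624.0 CPM, and the 3 dentate granule cell markers listed summed to 199.0 to 439.0 CPM. None of the 7 was called by limma in SE against pre-SE at either time. At an unadjusted p under 0.05 (limma) there were 0 at 6 h and 1, lower, at 2 days, beside 1155 lower over all 15851 genes. DESeq2 called 1, Calb2, lower at 2 days, beside 347 lower over all genes. Of the striatal markers, Drd2 and Adora2a reached at most 0.18 and 0.38 CPM, while Rgs9 ran from 6.92 to 20.25 CPM and Ppp1r1b from 31.76 to 106.09 CPM. Of 3 hypothalamic markers, Oxt and Pmch reached at most 0.55 and 1.33 CPM and Avp 8.82 CPM (sum 0.86 to 10.2 CPM), and 3 thalamic markers summed to 30.2 to 65.1 CPM.

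The first comparison asked which neuropeptide genes changed 6 h after SE. Crh, Trh, Pdyn and Tac1 were called higher in SE 6 h than in pre-SE, 4 of 10 genes, where 2.76% of the 15851 genes tested were called higher. None was called lower by limma, edgeR or DESeq2 (limma called 0.202% of all genes lower). By unadjusted p under 0.05 (limma) there were 5 higher and 1 lower, beside 1460 higher and 1349 lower over all 15851 genes. DESeq2 called 1008 of all genes higher and 99 lower. Both SE 6 h mice lay above both pre-SE mice for 7 of the 10 genes, against 18.6% of all genes. The median logFC (difference of group means of log2(CPM + 0.1)) was 1.29 over the 10 genes and -0.13 over all genes. Markers of other cells moved in the same comparison, and their part in the results was not tested. Of 5 microglial markers 2 were called lower, Tmem119 (logFC -2.50, adjusted p = 0.0048) and P2ry12 (logFC -2.51, adjusted p = 0.012), and the list summed to 148.0 to 156.0 CPM in pre-SE and 68.6 to 79.1 CPM in SE 6 h. Of 3 endothelial markers 1, Cdh5, was called higher (logFC 2.10, adjusted p = 0.0061), with list sums of 32.0 to 34.6 and 66.5 to 81.5 CPM. None of the 4 neuronal, 3 dentate granule cell and 4 astrocyte markers was called by limma, with an unadjusted p under 0.05 for 1 of each list, among them Calb1 of the granule cells (logFC -1.16, adjusted p = 0.065), and DESeq2 called 2 of them, Calb1 and Gfap.

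Crh (ENSMUSG00000049796, chr3:19593401-19595396, minus strand) encodes corticotropin-releasing hormone, the peptide that drives the pituitary stress axis and excites hippocampal neurons through Crhr1. Its level was 5.72 and 3.27 CPM in the pre-SE mice and 46.31 and 69.2 CPM in the SE 6 h mice, a ratio of means of 12.8. The logFC was 3.68 (standard error 0.57, adjusted p = 0.0091, limma with Benjamini-Hochberg adjustment). The groups did not overlap, with even the lower SE 6 h mouse far above both pre-SE mice. The call was lost without pre-SE mouse 2 (adjusted p = 0.068) and without SE 6 h mouse 2 (0.094), where logFC was 3.28 and 3.39.

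Trh (ENSMUSG00000005892, chr6:92192055-92194644, minus strand) encodes thyrotropin-releasing hormone. It was nearly undetected in the pre-SE hippocampus, with no tag in mouse 1 (which allows up to 0.103 CPM) and 21 tags, 0.41 CPM, in mouse 2. In the SE 6 h mice it reached 12.32 and 14.05 CPM, in close agreement with each other. The logFC of 5.88 (standard error 1.32, adjusted p = 0.044) depends on the pseudocount, since the pre-SE level was near 0: with a pseudocount of 1 it was 3.58 and no longer called (adjusted p = 0.16). By edgeR it was not called either (adjusted p = 0.08), while by DESeq2 it was (0.015). Without pre-SE mouse 1 the adjusted p was 0.24, without pre-SE mouse 2 0.069, without SE 6 h mouse 1 0.14 and without SE 6 h mouse 2 0.23.

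Pdyn (ENSMUSG00000027400, chr2:129512301-129525580, minus strand) encodes prodynorphin, the precursor of the dynorphins, which act at kappa opioid receptors. Its level was 3.59 and 2.98 CPM in pre-SE and 12.57 and 12.81 CPM in SE 6 h. The SE 6 h mice were nearly equal and both lay above all 8 other mice. The logFC was 1.92 (standard error 0.44, adjusted p = 0.046). The call was lost when any 1 library of the 3 groups pre-SE, SE 6 h and SE + LEV 6 h was left out (adjusted p from 0.062 to 0.25, logFC from 1.79 to 2.05).

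Tac1 (ENSMUSG00000061762, chr6:7505071-7512973, plus strand) encodes preprotachykinin, which gives substance P and neurokinin A. Its level rose from 4.9 and 6.38 CPM in pre-SE to 15.91 and 24.94 CPM in SE 6 h, and the SE 6 h mice were the 2 highest of the 10. The logFC was 1.81 (standard error 0.42), at the threshold with an adjusted p of 0.049, and 13 alternative settings lost the call, with adjusted p up to 0.31 without SE 6 h mouse 2 (logFC 1.49).

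The other 6 genes were not called at 6 h. Adcyap1 (ENSMUSG00000024256, chr17:93598762-93604825, plus strand) encodes PACAP, a peptide of the glucagon and secretin family. It was at 1.97 and 2.42 CPM in pre-SE and 6.0 and 7.74 CPM in SE 6 h, without overlap (logFC 1.60, standard error 0.78, adjusted p = 0.32). Sst (ENSMUSG00000004366, chr16:23889667-23890930, minus strand), the precursor of the inhibitory peptide somatostatin, was at 458.13 and 570.32 CPM in pre-SE and at 657.26 and 1255.67 CPM in SE 6 h (logFC 0.83, standard error 0.37, adjusted p = 0.28). Both SE 6 h mice lay above both pre-SE mice for these genes, with mouse 2 higher than mouse 1.

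Penk (ENSMUSG00000045573, chr4:4060678-4065966, minus strand), the precursor of the enkephalins, was at 17.66 and 25.14 CPM in pre-SE and 34.29 and 51.66 CPM in SE 6 h (logFC 0.99, standard error 0.71, adjusted p = 0.49). An annotated gene on the plus strand, A830012C17Rik, overlaps Penk, and the use of strand in counting is not stated in the sources used here. Npy (ENSMUSG00000029819, chr6:49772709-49779506, plus strand) encodes neuropeptide Y, which reduces glutamate release in the hippocampus. Its groups overlapped at 6 h, with 100.98 and 121.99 CPM in pre-SE and 125.09 and 100.59 CPM in SE 6 h (logFC 0.02, standard error 0.59, adjusted p = 0.99).

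For Cck and Vip both SE 6 h mice lay below both pre-SE mice, and the share of all genes that did so is not given here. Cck (ENSMUSG00000032532, chr9:121398943-121404807, minus strand), the precursor of cholecystokinin, was at 425.85 and 627.93 CPM in pre-SE and 331.16 and 333.62 CPM in SE 6 h (logFC -0.64, standard error 0.25, adjusted p = 0.22). Vip (ENSMUSG00000019772, chr10:4698927-4707323, minus strand), which encodes vasoactive intestinal peptide, was at 27.11 and 21.62 CPM in pre-SE and 17.42 and 20.97 CPM in SE 6 h (logFC -0.34, standard error 0.26, adjusted p = 0.54). Neither was called.

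**Figure D2:**
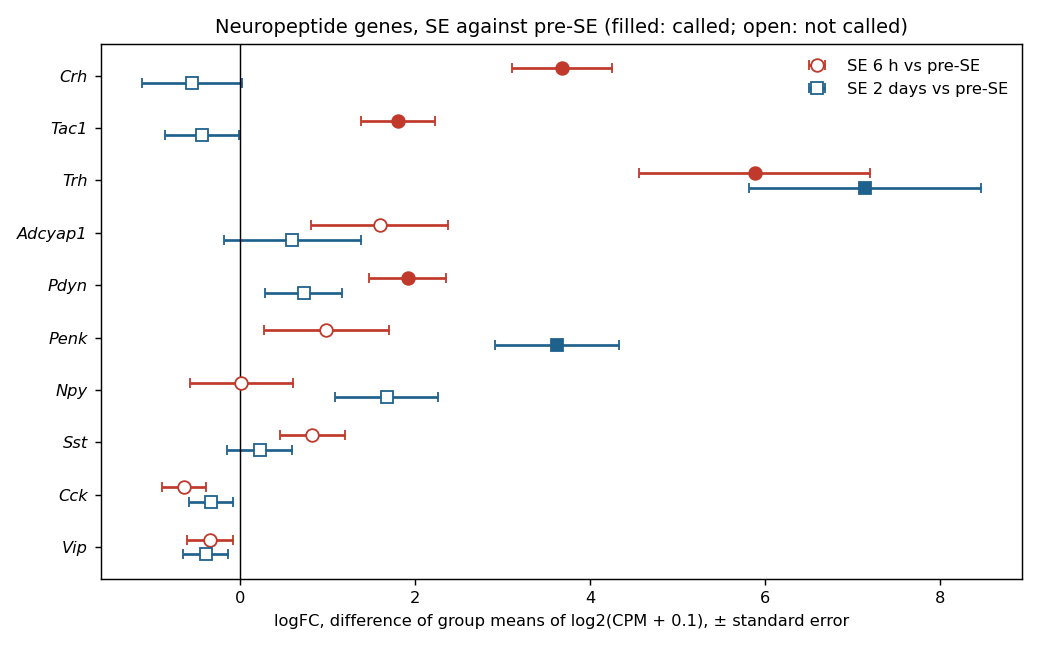
Difference from pre-SE of the 10 neuropeptide genes at SE 6 h (red circles) and SE 2 days (blue squares), as logFC on the horizontal axis with bars of 1 standard error (filled, called at an adjusted p of at most 0.05; 2 mice a group). Crh, Tac1 and Pdyn were called at 6 h, Penk at 2 days and Trh at both times.

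At 2 days after SE, 2 of the 10 genes, Trh and Penk, were called higher than in pre-SE, where 5.07% of all genes were called higher and 0.593% lower. No member was called lower by limma, edgeR or DESeq2. By unadjusted p under 0.05 (limma) there were 3 higher and 0 lower, beside 1977 higher and 1155 lower over all 15851 genes. DESeq2 called 1260 of all genes higher and 347 lower. Both SE 2 days mice lay above both pre-SE mice for 4 genes (26.3% of all genes). The median logFC was 0.41 over the 10 genes and -0.03 over all genes. Of 4 astrocyte markers 2 were called higher in the same comparison, Gfap (logFC 3.60, adjusted p = 0.00095) and Aqp4 (logFC 1.57, adjusted p = 0.011), while Slc1a2 had a logFC of -0.93 (adjusted p = 0.061), and the list summed to 1760 to 1850 CPM in pre-SE and 3180 to 4620 CPM in SE 2 days. Of 5 microglial markers 1, Aif1, was called higher (logFC 2.28, adjusted p = 0.003), while P2ry12 had a logFC of -0.93 (adjusted p = 0.26). The microglial list summed to 274.0 to 289.0 CPM in SE 2 days. None of the 4 neuronal and 3 dentate granule cell markers was called by limma, with 1 of each list lower at an unadjusted p under 0.05. DESeq2 called Calb1 of the granule cells (limma logFC -1.10, adjusted p = 0.055). The neuronal list summed to 4640 to 4960 CPM in pre-SE and 2910 to 3600 CPM in SE 2 days. The part of these cells in the results was not tested.

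Penk was at 132.12 and 509.67 CPM in the SE 2 days mice, a ratio of means to pre-SE of 15. Its logFC was 3.62 (standard error 0.71, adjusted p = 0.016). Both mice were above every pre-SE and SE 6 h mouse, but they differed 3.86-fold from each other. Without SE 2 days mouse 2 logFC was 2.64 and the call was lost (adjusted p = 0.17), as it was without pre-SE mouse 1 (0.10) and pre-SE mouse 2 (0.054).

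Trh was at 8.44 and 118.45 CPM in the SE 2 days mice, 14-fold apart, and both stood far above the pre-SE mice. The logFC was 7.14 (standard error 1.32, adjusted p = 0.011). The lower of the mice was below both SE 6 h mice, so that the 2 times overlapped (logFC for SE 2 days against SE 6 h 1.26, standard error 1.32, adjusted p = 0.63). Without SE 2 days mouse 2 the adjusted p against pre-SE was 0.12 (logFC 5.24), and without pre-SE mouse 1 it was 0.092 (logFC 5.96).

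Npy was at 179.26 and 710.7 CPM in the SE 2 days mice, both above all pre-SE and SE 6 h mice, and was not called (logFC 1.68, standard error 0.59, adjusted p = 0.14). It was called without SE 2 days mouse 1 (adjusted p = 0.026, logFC 2.68) and by DESeq2 (0.0051), while without SE 2 days mouse 2 logFC was 0.69 (adjusted p = 0.78). Adcyap1 was at 1.1 CPM in mouse 1, below both pre-SE mice, and at 9.93 CPM in mouse 2, above every other mouse of the study (logFC 0.60, standard error 0.78, adjusted p = 0.74). SE 2 days mouse 2 was thus the higher mouse of its group for all 10 genes, by a ratio from 1.19 for Tac1 to 14 for Trh.

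Pdyn, with 3.86 and 7.79 CPM, lay above both pre-SE mice and below both SE 6 h mice, and was called in neither direction (logFC for SE 2 days against pre-SE of 0.73, standard error 0.44, adjusted p = 0.40). Sst stood at 449.35 and 801.36 CPM and Cck at 370.23 and 456.61 CPM, each overlapping pre-SE. Vip, at 16.71 and 20.49 CPM, was below both pre-SE mice and was not called (logFC -0.39, standard error 0.26, adjusted p = 0.48). For these genes the difference from pre-SE was no larger than the test could separate from the spread between mice.

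The genes Crh and Tac1, called higher at 6 h, were back at or below the pre-SE range by 2 days. In SE 2 days Crh was at 1.61 and 5.3 CPM and Tac1 at 3.77 and 4.49 CPM. Between the times, 2 of the 10 genes were called lower at 2 days (1.11% of all genes) and none higher (3.14% of all genes). By unadjusted p under 0.05 (limma) there were 3 lower and 2 higher, beside 1155 lower and 2026 higher over all 15851 genes. DESeq2 called Npy and Penk higher, beside 707 higher over all genes. Crh fell by 4.22 on the log2 scale (standard error 0.57, adjusted p = 0.0047), and this call was kept with each library left out. Between the same times 4 of 5 microglial and 2 of 4 astrocyte markers were called higher and 1 of 3 endothelial markers lower. The astrocyte marker Slc1a2 went the other way from the called astrocyte markers (logFC -0.59, adjusted p = 0.23). The part of these cells in the results was not tested. Tac1 fell by 2.25 (standard error 0.42, adjusted p = 0.016), a call lost without SE 6 h mouse 1 (0.055), SE 6 h mouse 2 (0.12), SE 2 days mouse 1 (0.12) or SE 2 days mouse 2 (0.081).

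The comparison of SE + LEV with SE asked whether LEV altered these levels. At 6 h none of the 10 genes was called by limma, where 0.0126% of all genes were called, and by edgeR none was called. DESeq2 called 1 member, Crh, lower, beside 69 lower and 6 higher over all 15851 genes. By unadjusted p under 0.05 (limma) there were 3 members lower and 0 higher, beside 542 lower and 184 higher over all genes. Both SE + LEV 6 h mice lay below both SE 6 h mice for 5 genes, Crh, Tac1, Pdyn, Sst and Adcyap1, against 13.4% of all genes. The median logFC was -0.93 over the 10 genes and 0.04 over all genes. The SE 6 h mice enter both this comparison and the one with pre-SE, so the values of each are set side by side and are not independent of each other.

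Crh was at 5.62 and 5.12 CPM in the SE + LEV 6 h mice, against 46.31 and 69.2 CPM in SE 6 h, with a ratio of means of 0.093. The SE + LEV 6 h mice lay close together and within the range of the pre-SE mice (logFC for SE + LEV 6 h against pre-SE of 0.30, standard error 0.57, adjusted p = 0.88). The logFC of LEV was -3.38 (standard error 0.57), with an adjusted p of 0.13 over all genes by limma and of 1.3e-07 by DESeq2 on recovered tags. The value moved between -3.66 and -3.09 over the alternatives.

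Tac1 was at 7.24 and 9.68 CPM with LEV at 6 h (logFC -1.24, standard error 0.42, adjusted p = 0.84) and Pdyn at 7.31 and 5.22 CPM (logFC -1.03, standard error 0.44, adjusted p = 1.0). Both genes lay between the pre-SE and the SE 6 h mice in all mice with LEV. Adcyap1 was at 3.92 and 2.66 CPM (logFC -1.05, standard error 0.78, adjusted p = 1.0), also between these groups, and Sst was at 432.04 and 611.15 CPM (logFC -0.82, standard error 0.37, adjusted p = 1.0), overlapping pre-SE.

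Trh split the SE + LEV 6 h mice, at 1.5 CPM in mouse 1 and 16.98 CPM in mouse 2, the lower below and the higher above both SE 6 h mice (logFC -1.34, standard error 1.32, adjusted p = 1.0). Penk at 36.38 and 54.36 CPM, Npy at 91.61 and 147.9 CPM and Vip at 21.1 and 16.79 CPM overlapped SE 6 h. Cck lay above SE 6 h in both mice, at 377.25 and 375.78 CPM (logFC 0.18, standard error 0.25, adjusted p = 1.0). Against pre-SE none of the 10 genes was called in SE + LEV 6 h by limma, edgeR or DESeq2 (limma called 0.315% of all genes higher). At an unadjusted p under 0.05 (limma) 1 member, Trh, was higher, beside 876 higher over all 15851 genes.

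**Figure D3:**
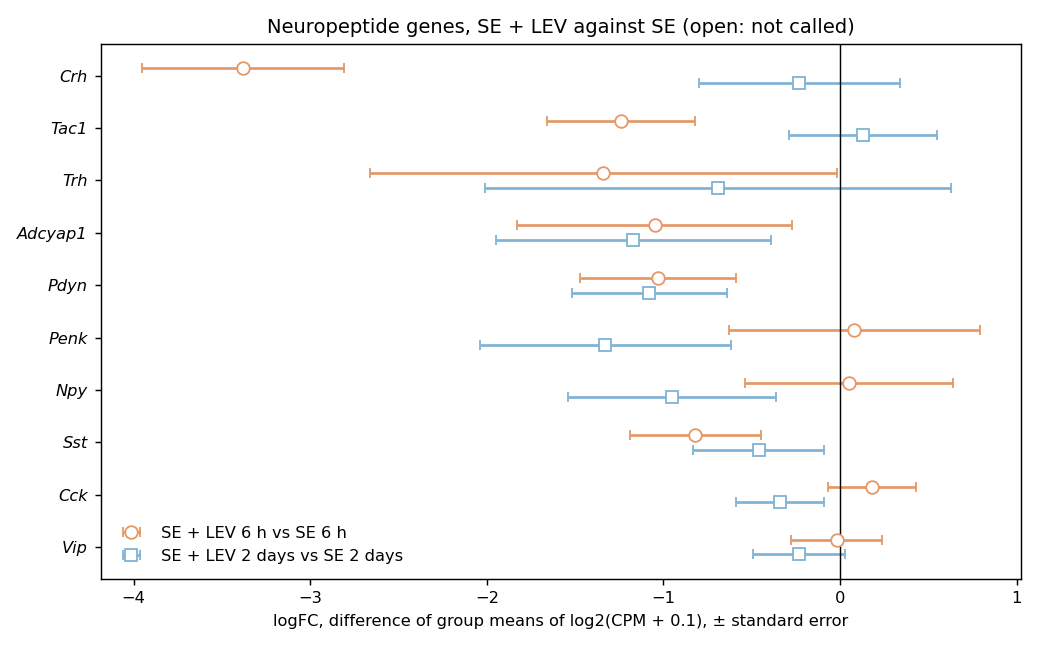
Difference of SE + LEV from SE for the 10 neuropeptide genes at 6 h (orange circles) and 2 days (light blue squares), as logFC on the horizontal axis with bars of 1 standard error (open symbols, not called; 2 mice a group). Crh at 6 h stood farthest from 0, at -3.38. At 2 days 9 of the 10 estimates were below 0 (median logFC -0.57, over all genes 0.04) and none was called. SE 2 days mouse 2 was the higher mouse of its group for all 10 genes, and several estimates changed direction with 1 library left out.

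At 2 days none of the 10 genes was called between SE + LEV and SE by limma (0.0% of all genes were called), edgeR or DESeq2. By unadjusted p under 0.05 (limma) there was 1 member lower, beside 220 lower over all 15851 genes. Both SE + LEV 2 days mice lay below both SE 2 days mice for 3 genes, Pdyn, Vip and Cck, against 12.2% of all genes. Pdyn was at 1.81 and 3.57 CPM, below the 3.86 and 7.79 CPM of SE 2 days (logFC -1.08, standard error 0.44, adjusted p = 1.0). Vip was at 16.41 and 15.11 CPM and Cck at 361.5 and 292.28 CPM, with logFC of -0.23 (standard error 0.26) and -0.34 (standard error 0.25).

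The genes that stood high at 2 days after SE overlapped between the groups with and without LEV. Penk was at 223.03 and 48.01 CPM in SE + LEV 2 days (logFC -1.33, standard error 0.71, adjusted p = 1.0). Npy was at 294.01 and 115.42 CPM (logFC -0.95, standard error 0.59, adjusted p = 1.0) and Trh at 32.1 and 11.95 CPM (logFC -0.69, standard error 1.32, adjusted p = 1.0). In all 3 genes the mice differed within SE + LEV 2 days as well, with mouse 1 the higher. For Penk and Npy this mouse lay between the SE 2 days mice and the other mouse below both.

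For the remaining genes SE + LEV 2 days mice were at 422.24 and 452.54 CPM for Sst, 3.02 and 6.69 CPM for Tac1, 1.92 and 1.07 CPM for Adcyap1 and 1.62 and 3.78 CPM for Crh. All 4 overlapped with SE 2 days and were not called. Against pre-SE, Trh was called higher in SE + LEV 2 days (logFC 6.45, standard error 1.32, adjusted p = 0.028), 1 of 10 genes where 2.83% of all genes were called higher. That call was lost without pre-SE mouse 1 (adjusted p = 0.21), SE + LEV 2 days mouse 1 (0.22) or either SE 6 h mouse (0.052), and by edgeR (0.068). Penk, with a logFC of 2.29 (standard error 0.71, adjusted p = 0.18), was above pre-SE in both mice. By unadjusted p under 0.05 (limma) there were 2 members higher and 2 lower than in pre-SE, beside 1404 higher and 303 lower over all 15851 genes. Of the 10 estimates 3 were above 0 and 7 below, with a median logFC of -0.33 against 0.02 over all genes.

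Whether the LEV effect differed between 6 h and 2 days was tested as a difference of the effects. No member was called by limma (0.0% of all genes), edgeR or DESeq2. By unadjusted p under 0.05 (limma) there were 2 members, Crh and Tac1, both with a higher estimate of the effect at 2 days than at 6 h. Over all 15851 genes 251 were higher in this way. The difference was 3.14 for Crh (standard error 0.81, adjusted p = 1.0) and 1.37 for Tac1 (standard error 0.59, adjusted p = 1.0). At 2 days Crh and Tac1 were low in SE without LEV as well.

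The genes whose profiles over the 10 libraries lay closest to the called genes were found by the mean absolute difference of centred log2(CPM + 0.1). Penk lay nearest to Clic1, S100a10 and Tagln2, each at 0.31, where the median over 15850 genes was 1.19. Pdyn lay nearest to Frmd6 (0.22), Lyzl4 (0.22) and Lrfn2 (0.23), and Tac1 to Plagl1 (0.24), Spag4 (0.24) and Zdbf2 (0.25), with medians of 0.84 and 0.79. Crh lay nearest to Zfp184, Map3k5 and Gm15594 (0.53 each, median 1.36), and Trh to Ifi202b (1.10), Timp1 (1.11) and Tubb6 (1.12), where the median was 2.32. The profile of Trh was thus matched less closely than those of the others, and the 10 libraries of all profiles are the same.

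Other neuropeptide precursors were followed by a list of 10 genes, of which 8 were in the table. At SE 6 h 1 of the 8 was called higher and 0 lower, and at SE 2 days 1 was called higher and 2 lower. Here and in the lists that follow these counts are to be read against the shares of all genes, 2.76% higher and 0.202% lower at 6 h and 5.07% higher and 0.593% lower at 2 days, and the list medians against those of all genes, -0.13 and -0.03. The median logFC of the 8 precursors was 0.13 at 6 h and 0.05 at 2 days. Nts, the neurotensin precursor, was at 4.76 and 5.99 CPM in pre-SE and 14.56 and 31.52 CPM in SE 6 h (logFC 1.98, standard error 0.39, adjusted p = 0.023), and at 3.52 and 3.23 CPM in SE + LEV 6 h, below both SE 6 h mice but not called (logFC -2.63, standard error 0.39, adjusted p = 0.073). Gal, which encodes galanin, a peptide that restrains seizures, was at 1.35 and 1.49 CPM in pre-SE and 17 and 334.19 CPM in SE 2 days (logFC 5.64, standard error 1.27, adjusted p = 0.03). SE 2 days mouse 2 was again the higher for Gal, and without it the call was lost. Nmb (neuromedin B, logFC -1.75, standard error 0.37, adjusted p = 0.022) and Cort (cortistatin, logFC -1.60, standard error 0.41, adjusted p = 0.05) fell at 2 days, and 14 alternatives lost the call of Cort.

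Of 23 neuropeptide receptor genes 17 were in the table. At SE 6 h 1 was called higher and 0 lower, and at SE 2 days 2 were called higher and 1 lower, where 2.76% and 5.07% of all genes were called higher, and the median logFC was -0.01 and -0.36. Sstr2, a somatostatin receptor, was at 15.21 and 20.15 CPM in pre-SE, 91.63 and 81.13 CPM in SE 6 h and 56.43 and 155.08 CPM in SE 2 days. It was called at both times (logFC 2.29, standard error 0.48, adjusted p = 0.034, and 2.41, standard error 0.48, adjusted p = 0.017), with all SE mice above pre-SE. Tacr1, the substance P receptor, was low throughout, at 0.45 and 0.23 CPM in pre-SE and 1.23 and 2.24 CPM in SE 2 days (logFC 2.05, standard error 0.52, adjusted p = 0.048, lost under 15 alternatives). Sstr4, another somatostatin receptor, fell from 66.22 and 71.05 CPM to 33.37 and 31.91 CPM at 2 days (logFC -1.07, standard error 0.24, adjusted p = 0.029).

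Among 7 genes of prohormone processing, 1 was called higher at SE 6 h (2.76% of all genes) and 0 at SE 2 days (5.07% of all genes), with a median logFC of -0.14 and -0.21. The 1 gene was Pcsk1, the prohormone convertase PC1/3, at 22.52 and 21.1 CPM in pre-SE and 144.78 and 154.3 CPM in SE 6 h (logFC 2.77, standard error 0.42, adjusted p = 0.0075). Its level was 23.32 and 64.62 CPM in SE 2 days. Of 5 granins and dense-core vesicle proteins, 2 passed the test as higher at 6 h (2.76% of all genes), and 1 did so at 2 days (5.07% of all genes), with a median logFC of 0.93 and 1.20. Scg2 (secretogranin II) went from 180.89 and 158.07 CPM to 973.34 and 915.0 CPM at 6 h (logFC 2.48, standard error 0.39, adjusted p = 0.0098). Vgf was at 225.45 and 203.5 CPM in pre-SE, 756.37 and 719.92 CPM in SE 6 h (logFC 1.78, standard error 0.41, adjusted p = 0.05, lost under 11 alternatives) and 477.63 and 1172.28 CPM in SE 2 days (logFC 1.80, standard error 0.41, adjusted p = 0.032).

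None of the 7 peptide binding and degrading proteins was called by limma at either time. At an unadjusted p under 0.05 (limma) there were 2 higher at 6 h and 1 higher and 2 lower at 2 days. Over all 15851 genes these counts were 1460 higher at 6 h and 1977 higher and 1155 lower at 2 days. DESeq2 called Ece1 higher at 6 h (1008 of all genes) and Trhde lower at 2 days (347 of all genes). Crhbp, which binds and buffers CRH, was at 19.73 and 19.69 CPM in pre-SE and 35.6 and 44.95 CPM in SE 6 h (logFC 1.02, standard error 0.45, adjusted p = 0.27). Ece1, a peptide-cleaving protease, had a logFC of 1.0 (standard error 0.27, adjusted p = 0.084) at 6 h. At 2 days the largest estimates were those of Mme, the enkephalin-degrading neprilysin (logFC -2.04, standard error 0.63, adjusted p = 0.098), and Trhde, the TRH-degrading ectoenzyme (logFC -1.13, standard error 0.34, adjusted p = 0.088). The level of Mme was low, at 3.14 and 1.74 CPM in pre-SE and 0.93 and 0.24 CPM in SE 2 days. In none of the 5 lists was a gene called between SE + LEV and SE at 6 h or at 2 days by limma. DESeq2 called 3, Nts, Tacr3 and Sstr1, lower at 6 h, beside 69 lower over all genes. Tacr3 and Sstr1 were named after their values were seen. The calls of the lists against pre-SE each ended with at least 1 library left out. Over the alternatives the adjusted p reached 0.068 for Pcsk1 (without SE 6 h mouse 2) and for Scg2, 0.18 for Nts and Sstr2 at 6 h, 0.16 for Sstr2 at 2 days, 0.19 for Nmb and Sstr4, and 0.24 for Gal.

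**Figure D4:**
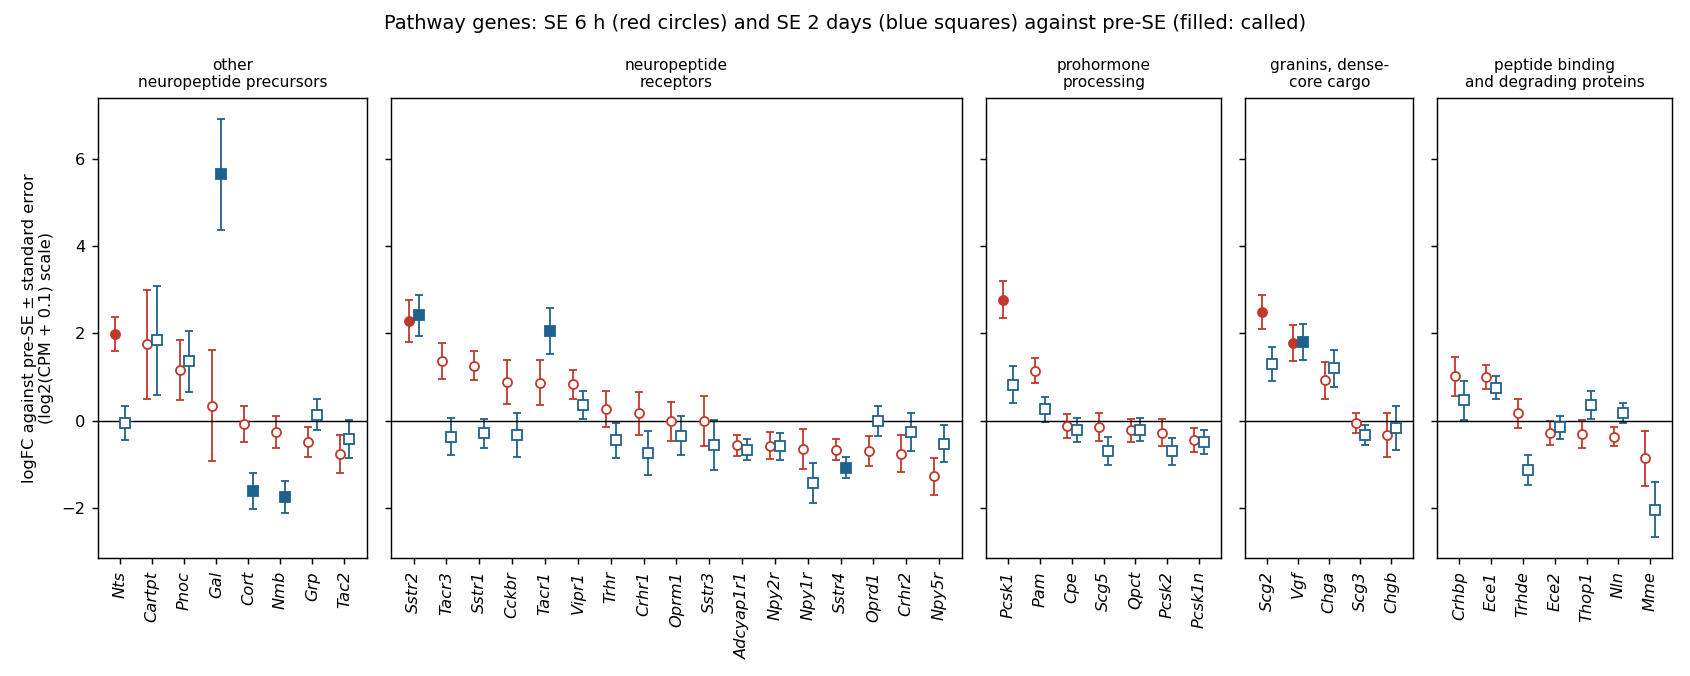
Difference from pre-SE of the genes of 5 lists of the neuropeptide pathway at SE 6 h (red circles) and SE 2 days (blue squares), as logFC on the vertical axis with bars of 1 standard error (filled, called; 2 mice a group). Sstr2 and Vgf were called at both times, Nts, Pcsk1 and Scg2 at 6 h, and Gal, Tacr1, Sstr4, Nmb and Cort at 2 days.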

How the data were processed

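CAGE libraries of the whole hippocampus of 10 mice were analysed, with groups taken from the labels. The authors mapped tags to mm9 with BWA 0.7.17 and the rest with HISAT2 2.0.5, clustered them, discarded clusters under 0.1 CPM and deposited a table of CPM per gene and mouse; 0 columns of single mice were not used. The way clusters were assigned to genes, and any use of strand, are not given in the sources used here.

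The members and gene lists were chosen with earlier results of these data known. All 15900 identifiers matched the mm9 annotation. R 4.3.3 and limma 3.58.1 were used for the tests. A single model of the 5 group means was fitted to log2(CPM + 0.1) of the 10 libraries, with the variance modelled as a trend of the mean, and its moderated tests were two-sided. Genes that reached 0.1 CPM in fewer than 2 libraries were not tested, which left 15851, over which p-values were adjusted by the Benjamini-Hochberg method. A gene was called where the adjusted p was 0.05 or less. A fold change on this scale understates the change of low genes.

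Whole tag counts were worked back from CPM as multiples of the value of 1 tag (100.0% of values within rounding of 0.005 CPM in each library) and used for edgeR 4.0.16 (quasi-likelihood) and DESeq2 1.42.0 as alternatives. Other alternatives were pseudocounts of 0.01 and 1, no filter or at least 1 CPM, median-of-ratios rescaling, only the groups compared, a replicate block and leaving out each library.

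All 10 members were named; of each pathway list the genes called in SE against pre-SE or SE + LEV against SE, otherwise the 2 with the largest change at each time against pre-SE, and the 3 nearest genes of each called member. Figures were drawn with matplotlib 3.10.9.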

Additional observations from a re-analysis of the deposited data

Results flagged for a closer look

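The effect of SE differed between 6 h and 2 days for Crh and Tac1. The difference between SE 2 days and SE 6 h, tested directly, was -4.22 for Crh and -2.25 for Tac1 on the log2 scale, with both SE 2 days mice below both SE 6 h mice for each gene (limma, adjusted p = 0.0047 and 0.016).

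The 2 mice with LEV lay above both SE mice for Cck at 6 h and below both SE mice at 2 days. The difference of the 2 effects was -0.52 on the log2 scale and did not pass the test (limma, standard error 0.35, adjusted p = 1.0).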

How the results depend on the processing

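With 2 mice a group, most calls rest on single libraries. The number of members called in SE 6 h against pre-SE was 4, and 2 with a pseudocount of 1; with 1 library left out it ran from 0 to 4. In SE 2 days against pre-SE it was 2, and 0 to 4 with 1 library left out. In SE 2 days against SE 6 h it was 2, 4 by DESeq2 and 1 to 3 with 1 library left out. Between SE + LEV 6 h and SE 6 h it was 0, and 1 by DESeq2. In SE + LEV 2 days against pre-SE it was 1, 0 with a pseudocount of 1, with only the groups compared and by edgeR, 2 by DESeq2, and 0 to 2 with 1 library left out. A group left with 1 library was assumed to vary like the others.

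The replicate numbers were used as a block. Deviations of same-numbered mice correlated at -0.44 to 0.34 between groups. These values cannot show whether the numbers pair mice by litter or run, which the labels do not state. With the replicate block the members called at SE 6 h against pre-SE were 3, as Pdyn was lost (adjusted p = 0.061). With the numbers crossed in SE + LEV 2 days, an alternative chosen after seeing the data, the members called were 1 in SE + LEV 6 h and 2 in SE + LEV 2 days, each against pre-SE.

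Of 1000 values of single members under alternatives, 930 kept their direction and their side of the threshold, 37 lost a call, 10 gained one and 23 changed direction, each with 1 library left out. The logFC then ran, in SE 6 h against pre-SE, from -0.14 to 0.17 for Npy. In SE 2 days against pre-SE it ran from -0.19 to 0.65 for Sst, -0.93 to 2.13 for Adcyap1 and -1.37 to 0.29 for Crh. In SE 2 days against SE 6 h it ran from -0.19 to 0.10 for Vip, -2.53 to 0.54 for Adcyap1 and -0.63 to 3.16 for Trh. In SE + LEV 6 h against SE 6 h it ran from -0.29 to 0.40 for Npy, -0.19 to 0.14 for Vip, -0.22 to 0.37 for Penk and -3.05 to 0.37 for Trh. In SE + LEV 2 days against SE 2 days it ran from -1.95 to 0.04 for Npy, -0.43 to 0.69 for Tac1, -2.71 to 0.36 for Adcyap1, -1.06 to 0.60 for Crh and -2.59 to 1.21 for Trh. The cause was not tested beyond the library left out.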
